A study of Mus musculus with 2 samples.

Results

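The genes described here encode the machinery that shows peptides from inside the cell on MHC class I. They are the class I light chain (B2m), the classical heavy chains (H2-K1 and H2-D1), the peptide transporter and its partner (Tap1, Tap2 and Tapbp), the immunoproteasome subunits (Psmb8, Psmb9 and Psmb10) and the class I transactivator (Nlrc5). The 10 genes were taken from 31253 genes with a symbol, as a list of antigen presentation genes selected on the comparison of the same 2 libraries, in which the B2m level had been seen to be high in mNRPCs. RNA sequencing of 2 mouse samples was used, with 1 library per group. The first library came from a culture of neural retinal progenitors (mNRPCs) of strain C57BL/6 at passage 24, which the study derived from adult neural retina and kept on Matrigel in N2/B27 medium containing bFGF, a growth factor, and the GSK3 inhibitor CHIR99021. The second came from untreated C57BL/6 retina tissue, whose age the labels do not give. The number of animals behind either library is not given in the sources used here, and no interferon treatment is named for either. With 1 library per group there was no replicate check and no p-value between the groups, and cell type and growth in culture cannot be told apart.

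MHC class I molecules consist of a heavy chain, B2m and a short peptide. Proteasomes cut proteins into peptides, the TAP transporter moves these into the endoplasmic reticulum, and tapasin holds empty class I molecules next to the transporter until a peptide is bound. In cells exposed to interferon, Psmb8, Psmb9 and Psmb10 take the place of the catalytic subunits Psmb5, Psmb6 and Psmb7 in newly built proteasomes, which then cut with other preferences. Neural tissue, retina included, is known for low class I expression.

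All 10 genes had more FPKM, the fragment count of a transcript scaled by its length and by the sequenced total, in the mNRPC library than in the retina library. Their log2 ratios, taken as log2 of (mNRPC FPKM + 1)/(retina FPKM + 1), ran from 2.22 for Tap2 to 6.23 for B2m, with a median of 4.23 against −0.12 over the 13780 genes with at least 1 FPKM in either library. All 10 were at least 4-fold higher on this scale, as were 11.2% of all genes compared, and 6 of the 10 were at least 16-fold higher, as were 2.49% of all genes. With equal library totals Tap2 (1.81) fell short of 4-fold and 5 genes reached 16-fold, while with a pseudocount of 0.1 it was 7. Nlrc5 (1.95) fell short of 4-fold with its curated transcript alone. At a threshold of 2-fold, 24.5% of all genes were higher and 30% were lower. These counts describe a list that was chosen with this contrast known. Together the 10 genes held 0.994% of the FPKM total of mNRPCs and 0.0341% of that of retina. Retina is a mixture of cell types, and fewer cells of a type and less RNA per cell cannot be told apart in such a sample.

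Where these genes lie is given from RefSeq on build GRCm38.p6. B2m is on chromosome 2 (122147687 to 122153082), and Nlrc5 (94434335 to 94527272) and Psmb10 (105935728 to 105938392) are on chromosome 8. The other 7 lie within 1.35 Mb of chromosome 17, the mouse MHC. Along it follow Tapbp (33919478 to 33929290), H2-K1 (33996012 to 34000619), Psmb9 (34182030 to 34187330), Tap1 (34187556 to 34197225), Psmb8 (34198195 to 34201454), Tap2 (34204479 to 34216321) and H2-D1 (35263094 to 35267497). Psmb9 and Tap1 point away from each other with 225 bp between them.

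Promoter windows from 250 bases before to 50 after the annotated start were held by the RefSeq table for 8 of the 10 genes, all but Tap2 and Nlrc5. The windows below are shown because these genes were higher together and because class I promoters are known for interferon and NF-κB elements. H2-K1 has another window from a nearby start, which overlaps the one shown, and the Tap1 window shares 275 bases with that of Psmb9 on the opposite strand. The H2-K1 window shown lies inside the gene span given above. Its distances are therefore counted from a start within that span, not from the end of the span. Sequences are written 5′ to 3′ on the strand of the gene. Capitals mark the letters searched for on both strands, which were the interferon-stimulated response element (ISRE), the gamma-activated site (GAS) TTCNNNGAA, the NF-κB element and the interferon consensus sequence (ICS) of class I promoters, and the CCAAT box.
B2m promoter, chr2:122147437-122147736 (plus strand): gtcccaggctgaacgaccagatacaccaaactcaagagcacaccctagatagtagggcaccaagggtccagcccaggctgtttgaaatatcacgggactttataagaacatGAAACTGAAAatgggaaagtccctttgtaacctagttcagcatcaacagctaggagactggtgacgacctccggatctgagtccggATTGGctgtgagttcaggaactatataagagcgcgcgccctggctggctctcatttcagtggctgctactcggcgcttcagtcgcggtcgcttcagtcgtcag
H2-K1 promoter, chr17:34000298-34000597 (minus strand): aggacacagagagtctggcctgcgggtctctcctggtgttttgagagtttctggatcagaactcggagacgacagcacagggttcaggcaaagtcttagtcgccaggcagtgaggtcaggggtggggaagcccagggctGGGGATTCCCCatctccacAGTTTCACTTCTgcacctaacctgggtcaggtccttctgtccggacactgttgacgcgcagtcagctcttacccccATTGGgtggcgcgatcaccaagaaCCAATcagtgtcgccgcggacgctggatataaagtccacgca
H2-D1 promoter, chr17:35262844-35263143 (plus strand): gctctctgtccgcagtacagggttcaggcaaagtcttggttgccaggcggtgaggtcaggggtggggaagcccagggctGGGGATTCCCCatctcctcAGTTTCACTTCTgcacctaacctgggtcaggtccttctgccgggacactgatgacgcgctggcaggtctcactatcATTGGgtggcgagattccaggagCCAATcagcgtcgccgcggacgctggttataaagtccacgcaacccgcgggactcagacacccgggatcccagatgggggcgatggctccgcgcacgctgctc
Tap1 promoter, chr17:34187306-34187605 (plus strand): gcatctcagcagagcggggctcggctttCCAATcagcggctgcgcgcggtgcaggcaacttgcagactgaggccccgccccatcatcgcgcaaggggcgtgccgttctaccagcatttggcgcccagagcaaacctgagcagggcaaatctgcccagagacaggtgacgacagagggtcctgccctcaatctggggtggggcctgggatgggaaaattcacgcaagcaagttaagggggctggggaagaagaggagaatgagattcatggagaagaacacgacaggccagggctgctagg
Among the 8 genes only B2m held the ISRE letters, 139 bases before the start. They were found in 3.44% of the 32851 mouse windows of this length in the table. Both H2-K1 and H2-D1 held the NF-κB element, at 111 and 171 bases before the start, and the ICS, at 92 and 152 bases. In all mouse windows these were found in 0.0304% and 0.0335%, but both sets of letters were first described in class I promoters, so a match here is no independent observation. Of the 8 genes, 6 had a CCAAT box, against 37.4% of all windows, but the match of Psmb9 and that of Tap1 are the same site in their shared bases. Of the 8 only Psmb8, whose window is not printed, held the GAS letters, as did 8.30% of all windows. The windows of Tapbp, Psmb9 and Psmb10 are not printed either, and that of Psmb10 held none of the letters searched for. No 2 matches overlapped in the printed windows. A match is a description of the letters and says nothing of use in these cells.

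The light chain B2m, which class I molecules in general need for efficient passage to the surface, was the member with the highest level in both libraries. Its level was 4320.45 FPKM in mNRPCs against 56.7 FPKM in retina, a 76.2-fold difference with a 95% counting interval of 67.1 to 86.9. Such intervals are exact binomial intervals on estimated fragments and cover counting error only. In mNRPCs only 5 genes had more FPKM than B2m, while in retina its rank was 1218. B2m alone held 0.700% of the mNRPC FPKM. By its log2 ratio of 6.23 B2m was at rank 39 of all genes compared, and among the 1107 genes that reached 100 FPKM in one library, 35 had a larger ratio. In this set the nearest genes by log2 ratio were Rpl17-ps8, a ribosomal protein pseudogene, at 6.23, Anxa2 at 6.22 and Pcolce at 6.24. With 2 libraries, this likeness is that of a single number.

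The classical heavy chains H2-K1 and H2-D1, which bind the peptide and are read by CD8 T cells, were nearly level with each other in mNRPCs and not in retina. H2-K1 was at 704 FPKM in mNRPCs against 18.2 in retina, a 38.6-fold difference (32.8 to 45.9). H2-D1 was at 665 FPKM and 36.1 FPKM, an 18.4-fold difference (16.6 to 20.5). The ratio of H2-K1 to H2-D1 was 1.06 in mNRPCs and 0.505 in retina. Class I genes are near-identical copies of each other, so fragments may have been divided among them by estimation and each single value is uncertain. The sum of H2-K1 and H2-D1 was 1369 FPKM in mNRPCs against 54.3 in retina, 25.2-fold. With the 16 other heavy chain genes of a list added, it was 1759 and 96.0 FPKM, 18.3-fold. As the genes differ in length, this sum of FPKM also depends somewhat on the division. Of that sum H2-K1 and H2-D1 made up 77.8% in mNRPCs and 56.6% in retina.

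Light chain and heavy chains were not in the same proportion in the 2 libraries. On the FPKM scale, which is per length, B2m was at 3.16 times the sum of H2-K1 and H2-D1 in mNRPCs and at 1.04 times in retina. Against all listed heavy chains these ratios were 2.46 and 0.590. Ratios within a library do not depend on how the libraries are scaled to each other.

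The products of Tap1 and Tap2 pair to form the peptide transporter. Tap1 was at 44.3 FPKM in mNRPCs against 0.281 FPKM in retina. The retina value rests on an estimated 4.06 fragments, so the 158-fold difference has an interval of 61.9 to 574. Of the Tap1 transcripts, the one with 97.9% of the gene's FPKM in mNRPCs, at 43.4 FPKM, had 0.120 FPKM in retina. Tap2 was at 34.97 FPKM in mNRPCs against 6.70 in retina, 5.22-fold (4.28 to 6.42), the smallest difference of the 10 genes. The FPKM ratio of Tap1 to Tap2 was thus 1.27 in mNRPCs and 0.0419 in retina. The division of fragments between transcripts adds an error to so low a value that the interval does not cover. Tapbp, the gene of tapasin, was at 171 FPKM in mNRPCs against 21.6 in retina, 7.94-fold (7.01 to 9.02). Its 2 transcripts were at 92.6 and 78.7 FPKM in mNRPCs against 16.2 and 5.43 in retina.

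**Figure D1:**
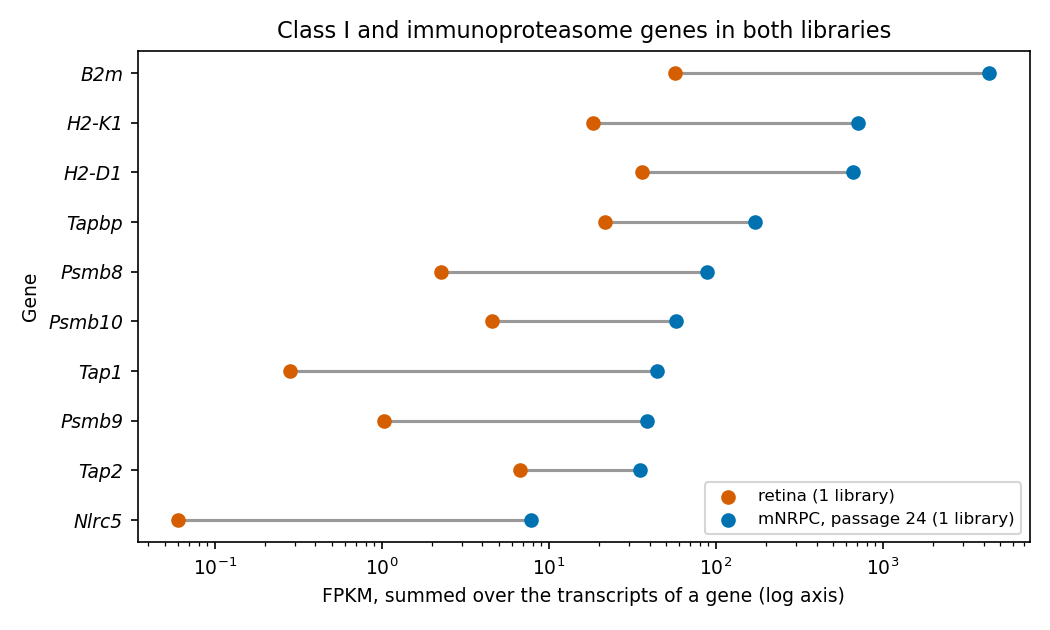
FPKM of the 10 genes in the mNRPC library (blue) and the retina library (orange) on a log axis, 1 point per library and gene, with genes ordered by mNRPC level. The mNRPC point lies to the right for each gene, from 7.85 FPKM for Nlrc5 to 4320.45 FPKM for B2m, and the widest gaps are those of Tap1 and Nlrc5, which are near 0 in retina.

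Nlrc5, a member of the NLR family that acts as transactivator of class I genes, was the member with the lowest level in both libraries. It was at 7.85 FPKM in mNRPCs, from 352 estimated fragments, while retina had 0.0603 FPKM from 2.05 fragments. This retina value is under the limit of detection of 3 fragments, 0.0882 FPKM for this gene. The ratio of these values was 130, with an interval of 36.3 to 1037. Its log2 ratio of 3.06 is small beside that fold because 1 was added to each value. The curated transcript held 37.1% of the Nlrc5 FPKM in mNRPCs and 5 predicted transcripts held the rest.

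All 3 immunoproteasome subunits, which are known to be induced by interferon gamma, were higher in mNRPCs. Psmb8 (LMP7) was at 88.0 FPKM in mNRPCs against 2.24 in retina, 39.2-fold (24.6 to 66.6). Psmb9 (LMP2) was at 38.7 and 1.03 FPKM, 37.4-fold (17.8 to 94.8). Psmb10 (MECL-1) was at 57.5 and 4.55 FPKM, 12.6-fold (8.71 to 19.1). The intervals of Psmb8 and Psmb9 overlap over most of their width. Psmb10 was the immunosubunit with the highest level in retina, where Psmb8 and Psmb9 rested on an estimated 17.9 and 6.85 fragments.

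The constitutive subunits that these replace were much closer between the libraries. Psmb5, the constitutive chymotrypsin-like subunit, was at 148 FPKM in mNRPCs against 104 in retina (log2 ratio 0.51). Psmb6, the caspase-like subunit, was at 198 and 124 FPKM (0.68), and Psmb7, the trypsin-like subunit, at 207 and 123 FPKM (0.75). None of these 3 reached 2-fold. With the totals of the libraries made equal the values were 0.00167 for Psmb5, 0.17 for Psmb6 and 0.24 for Psmb7.

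The share of each immunosubunit in its pair was therefore compared within a library, where scaling plays no part. Psmb8 made up 37.2% of the summed FPKM of Psmb8 and Psmb5 in mNRPCs (35.04 to 39.4) and 2.11% in retina (1.25 to 3.34). Psmb9 made up 16.3% of its pair with Psmb6 in mNRPCs (14.7 to 18.1) and 0.831% in retina (0.330 to 1.72). Psmb10 made up 21.8% of its pair with Psmb7 in mNRPCs (20.04 to 23.5) and 3.57% in retina (2.40 to 5.08). In each pair the counting intervals of the 2 libraries were apart. Over the 3 pairs the immunosubunits had 25.0% of the FPKM in mNRPCs and 2.18% in retina, so constitutive transcripts were the majority in both libraries. These are shares of RNA, and the assembled proteasome was not measured.

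**Figure D2:**
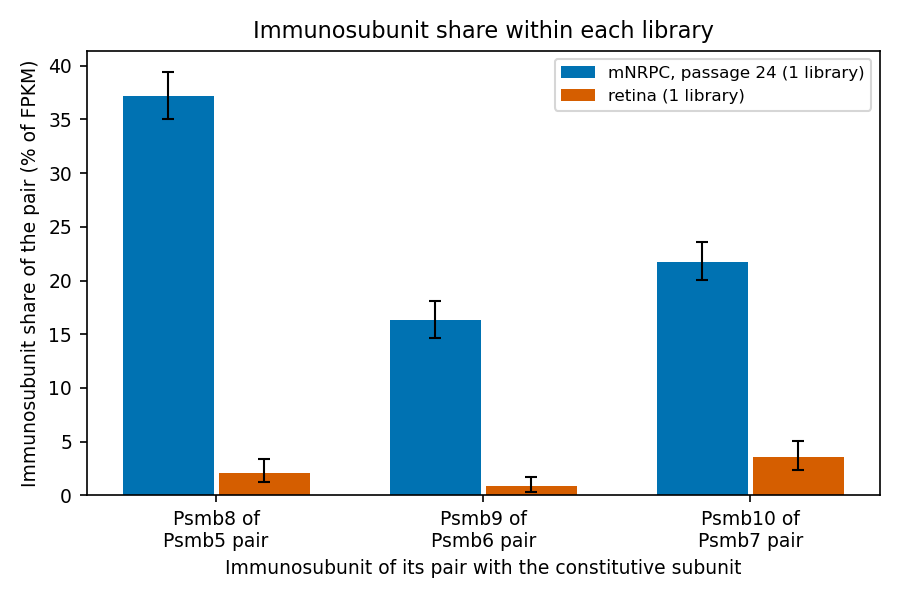
Share of the FPKM of each immunosubunit in the sum with its constitutive partner, in percent, for 1 mNRPC library (blue) and 1 retina library (orange), with error bars for the 95% counting interval from estimated fragments. The mNRPC bars stand at 37.2%, 16.3% and 21.8%, and the retina bars at 2.11%, 0.831% and 3.57%.

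Other parts of the proteasome were looked up from lists of related genes. The regulator PA28, which opens the core particle and is induced by interferon gamma, consists of the products of Psme1 and Psme2. Psme1 was at 173 FPKM in mNRPCs against 20.6 in retina, 8.41-fold (6.93 to 10.3), and Psme2 at 246 and 26.4 FPKM, 9.31-fold (7.75 to 11.3). Psme3, the gene of the nuclear PA28 gamma, was at 35.3 and 40.4 FPKM, 0.873-fold (0.775 to 0.983). The sum of Psme1 and Psme2 was thus 11.9 times Psme3 in mNRPCs and 1.16 times in retina. Of the 9 genes of activators and assembly factors 3 were at least 2-fold higher, the third being Psme4 (log2 ratio 1.83), and the rest were within 2-fold. Of the 11 other core subunits 7 were at least 2-fold higher and 4 within 2-fold, with a median log2 ratio of 1.11. With equal totals 3 of them were higher. Among all genes compared 24.5% were higher as deposited and 18.4% with equal totals. Psma5 was the core subunit with the largest log2 ratio, 2.18, below that of each immunosubunit.

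Of the other class I heavy chains, 6 of 16 reached 1 FPKM in either library, of which 5 were higher in mNRPCs and 1 was lower. H2-T22, a ligand of some gamma delta T cells, was at 96.3 FPKM in mNRPCs against 2.81 in retina (log2 ratio 4.67). H2-Q7, of the Qa-2 family, was at 27.9 and 0.600 FPKM (4.17), the retina value resting on an estimated 3.33 fragments. H2-T23, which encodes Qa-1 and is read by NK cell receptors, was at 65.5 and 13.8 FPKM (2.17). H2-M5 was listed at 0 in mNRPCs, with 2.13 FPKM in retina. These genes share sequence with H2-K1 and H2-D1, and their single values are uncertain in the same way.

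Among class I-like molecules, which resemble class I but do not show ordinary peptides, 4 of 5 genes compared were higher and 1 was within 2-fold. Fcgrt, the heavy chain of the neonatal Fc receptor, which pairs with B2m, was at 64.0 FPKM in mNRPCs against 1.42 in retina (log2 ratio 4.75). Cd1d1, which presents lipids, was at 20.1 and 1.13 FPKM (3.31), and Mr1, which presents vitamin metabolites, at 7.59 and 1.05 FPKM (2.07). Hfe, which takes part in iron control, was at 6.06 and 5.87 FPKM, a log2 ratio of 0.04 that turned to −0.43 once the totals were made equal and to −0.07 once upper quartiles were.

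The general chaperones and peptidases of the pathway, which most cells use for other proteins too, had a lower median log2 ratio than the 10 class I and immunoproteasome genes, with some overlap. Of 10 such genes 6 were at least 2-fold higher and 4 were within 2-fold, with a median log2 ratio of 1.62, and with equal totals 5 were higher, 1 was lower and 4 were within 2-fold. Calr was at 420 FPKM in mNRPCs against 147 in retina (log2 ratio 1.51, and 0.997 with equal totals), Canx at 189 and 94.2 (0.999, from 0.49 with equal totals to 1.01 with trimmed mean scaling) and Pdia3 at 311 and 69.5 (2.14). These 3 encode calreticulin, calnexin and ERp57, which fold class I molecules. Erap1, the peptidase that trims peptides in the endoplasmic reticulum, was at 21.4 and 4.79 FPKM (1.95). Sec61a1, of the protein channel, had the largest ratio of this list (2.44, above that of Tap2), and Npepps, a cytosolic aminopeptidase, the smallest, with 31.2 and 60.9 FPKM (−0.94). Npepps was past the 2-fold threshold as a lower gene with equal totals (−1.46) and with equal upper quartiles (−1.06).

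**Figure D3:**
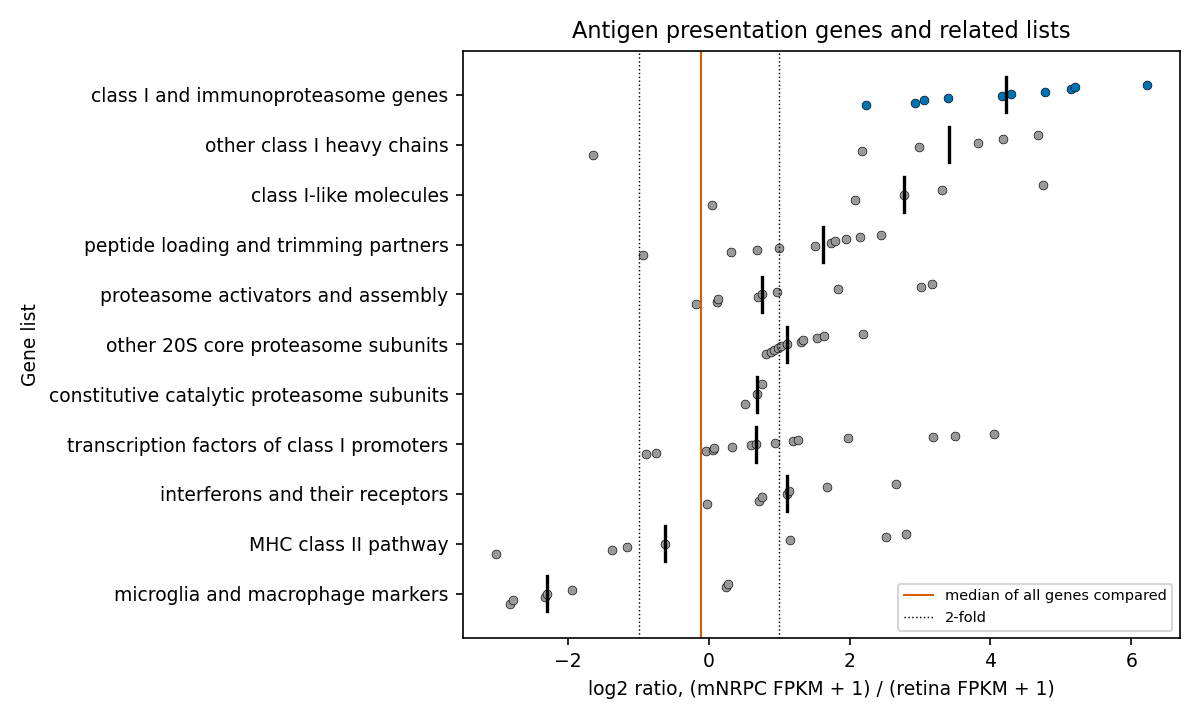
Log2 ratio of each gene with at least 1 FPKM in either library, by gene list, with 1 point per gene and black bars for the list medians. The 10 class I and immunoproteasome genes (blue) lie between 2.22 and 6.23, the constitutive catalytic subunits between 0.51 and 0.75, and the MHC class II list on both sides of the median of all genes at −0.12 (orange line), with dotted lines at 2-fold.

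The MHC class II pathway serves the display of outside proteins by professional antigen presenting cells, and its listed genes went in both directions. Its H2 genes lie among the class I genes on chromosome 17, while Cd74, Ciita, Ctss and Ifi30 are not in that stretch. The chains H2-Aa, H2-Ab1 and H2-Eb1, located between Tap2 and H2-D1, were listed at 0 in mNRPCs, with 0.689, 1.59 and 1.24 FPKM in retina. Ciita, the class II transactivator, was listed at 0 in mNRPCs and at 0.0254 FPKM in retina, which is under 1 estimated fragment. Cd74, the invariant chain, was at 0.687 FPKM in mNRPCs against 1.59 in retina. H2-DMa and H2-DMb1, which load peptides on class II and lie between H2-K1 and Psmb9, were at 3.38 and 8.11 FPKM in mNRPCs against 0.967 and 0.592 in retina. Of 7 class II pathway genes compared 3 were higher, 3 were lower and 1 was within 2-fold, with a median log2 ratio of −0.62. The higher genes were Ifi30, a lysosomal thiol reductase, at 2.80, H2-DMb1 at 2.52 and H2-DMa at 1.16. The lowest ratio was that of Ctss, the protease cathepsin S, with 0.320 FPKM in mNRPCs against 9.81 in retina (−3.03). With equal totals 8 genes of this list were compared, of which 3 were higher and 5 lower.

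Transcription factors known to bind class I promoters were compared next. Irf1, which binds interferon response elements, was at 66.0 FPKM in mNRPCs against 3.06 in retina, 21.5-fold (15.2 to 31.7). Stat2 and Irf9, factors of the response to type I interferon, were at 56.6 and 74.4 FPKM in mNRPCs against 4.11 and 7.27 in retina (log2 ratios 3.50 and 3.19). Nfkb1, of the NF-κB family, was at 22.9 and 5.07 FPKM (1.98), while Rela, of the same family, was within 2-fold (0.93). Irf2 (0.66), Atf1 (0.59), Nfyb (0.06) and Nfyc (0.07) were also within 2-fold. The RFX factors Rfx5 and Rfxap, which form with Rfxank the complex that Nlrc5 acts through, were at 10.8 and 13.1 FPKM in mNRPCs and 11.2 and 10.3 in retina. Rfxank was at 8.24 and 3.03 FPKM (1.20, and 0.84 with equal totals). Nfya (−0.89) and Creb1 (−0.76) had the smallest ratios. Of the 15 genes of this list 6 were higher and 9 were within 2-fold.

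Of the interferons, Ifng and Ifnb1 were looked up. Ifng was listed at 0 in both libraries. Ifnb1 was listed at 0 in retina and had 0.627 FPKM in mNRPCs, from 3.03 estimated fragments. Of the receptor genes, Ifnar2 was at 24.6 FPKM in mNRPCs against 3.05 in retina (log2 ratio 2.66) and Ifngr2 at 28.5 and 8.26 (1.67). Ifngr1 was at 36.4 and 16.4 (1.10) and Ifnar1 at 16.7 and 9.82 (0.71). The Ifngr1 ratio was 0.62 with equal totals and 0.98 with equal upper quartiles, both within 2-fold. Jak1, a kinase of these receptors, was at 10.8 and 11.0 FPKM. Over the 9 lists of related pathway genes 38 of 73 genes compared had at least 2-fold more FPKM in mNRPCs and 4 had at least 2-fold less. Of all genes compared 24.5% were higher and 30% lower. With equal totals 30 of 75 related genes were higher and 9 were lower, against 18.4% and 42.4% of all genes.

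Immune cells carry much class I, so their markers were read beside these values. Of 27 marker genes of microglia and macrophages, T and NK cells and B cells, 22 were listed at 0 in mNRPCs and 6 in retina. Their summed level was 3.26 FPKM in mNRPCs against 40.0 in retina. Ptprc, Aif1, Cx3cr1, C1qa, C1qb, C1qc and Tyrobp were listed at 0 in mNRPCs. The markers that reached 1 FPKM there were Cd68 (1.82, against 1.35 in retina) and Tmem119 (1.22, against 0.880), both within 2-fold. In retina C1qa, C1qb and C1qc were at 4.04, 5.89 and 6.11 FPKM. Jchain, a plasma cell marker, was listed at 0 in mNRPCs and had 10.3 FPKM of the retina sum. Endothelial markers, 7 in number, summed to 0.151 FPKM in mNRPCs against 39.6 in retina, of which Kdr alone had 29.5. The 4 of them that were compared were all lower in mNRPCs. Markers of pericytes and fibroblasts, 8 in number, summed to 9.67 and 14.9 FPKM, and went in both directions. Of the 5 compared 1 was higher, 1 was lower and 3 were within 2-fold. The higher was Pdgfrb, the highest of them in mNRPCs, at 4.49 FPKM against 1.24 in retina. The lower was Rgs5, listed at 0 in mNRPCs, which alone had 8.16 FPKM of the retina sum.

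As for the labels, 4 of 8 progenitor markers were at least 2-fold higher in mNRPCs, 2 were lower and 2 within 2-fold. Vim was at 3138 FPKM in mNRPCs against 101 in retina. Pax6 was at 123 and 101 FPKM (log2 ratio 0.28, and −0.23 with equal totals), and Rax, a defining marker, was listed at 0 in mNRPCs, with 81.7 FPKM in retina. All 8 rod markers were lower, with a sum of 7.88 FPKM in mNRPCs against 20487 in retina. The depth was estimated at 6.46e+06 fragments for mNRPCs and 4.90e+06 for retina, and the FPKM total of mNRPCs was 1.43 times that of retina.

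This unequal total makes the size of each log2 ratio depend on how the libraries are scaled. Rescaling both to a common sum shifted the all-gene median, −0.12 as deposited, to −0.68, and upper quartile scaling moved it to −0.24. The median of the 10 genes exceeded the all-gene median by 4.35 as deposited, by 4.64 after rescaling and by 4.34 with upper quartile scaling. All 10 remained at least 2-fold higher under each scaling. The lowest value was then 1.81, for Tap2 after rescaling to a common sum, and that of B2m was 5.73.

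**Figure D4:**
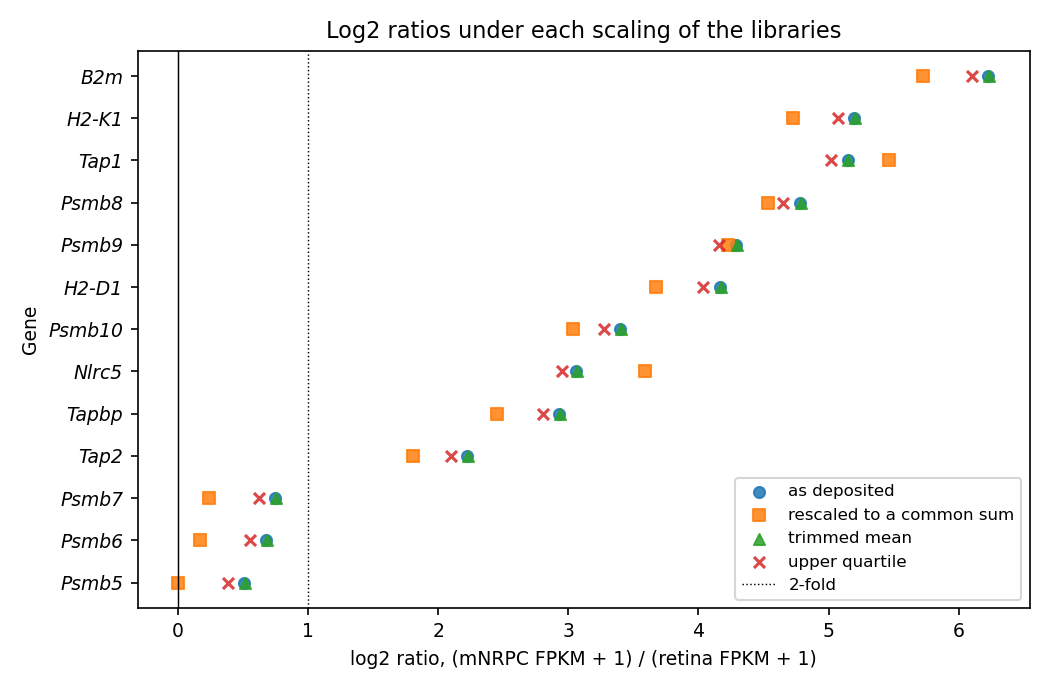
Log2 ratios of the 10 genes and of the constitutive subunits Psmb5, Psmb6 and Psmb7 under 4 scalings of the libraries, with a dotted line at 2-fold. All 10 genes stay to the right of this line, with Tap2 nearest to it at 1.81, while Psmb5, Psmb6 and Psmb7 stay to its left.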

How the data were processed

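RNA sequencing of 1 mNRPC library and 1 retina library was used, with groups taken from the labels. The deposited values were FPKM for each of 106754 RefSeq transcripts, calculated by the authors. The study's methods name Bowtie 2 and eXpress, and the submitters' processing notes name TopHat2 2.0.10 and build GRCm38.p3. The sources name different sequencers. Reads that fit several transcripts are divided by estimation, which bears most on near-identical class I genes. Accessions were matched without version to RefSeq (GRCm38.p6), then GENCODE, which gave a symbol to 69.6% of transcripts, and FPKM were summed per gene. All 10 genes were matched, through 23 transcripts. Values below 1e-06 were read as 0.

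Log2 ratios used a pseudocount of 1, as in the study, and genes with at least 1 FPKM in either library were compared. Depth was read from the lowest FPKM multiplied by transcript length, which gather at the worth of 1 fragment, with 645 and 648 transcripts. Intervals are 95% exact binomial (Clopper-Pearson) intervals on fragments estimated this way, and 3 fragments were taken as the limit of detection. The script was tested on simulated data. Python 3.11.15, pandas 2.3.3, numpy 2.4.6 and scipy 1.17.1 were used.

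Members and lists were chosen with earlier results of these data known. Named were all 10 members, their proteasome partners and main pathway genes, and the 2 highest and 2 lowest ratios of a list where these are informative. Further list genes (such as Irf9, Nfkb1, Rela, the RFX genes and H2-DMa) were chosen after their values were seen. One gene of the transcription factor list is not reported here. Alternatives were other pseudocounts, filters, thresholds, scalings and choices of transcripts, and, chosen after seeing the data, leaving out H2-K1 and H2-D1 and summing heavy chains.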

Additional observations from a re-analysis of the deposited data

How the results depend on the processing

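All 10 genes were at least 2-fold higher under each alternative for pseudocount, filter, scaling and transcripts, and at least 4-fold higher at a threshold of 2 on the log2 scale. Without H2-K1 and H2-D1 this held for the other 8, with a median of 3.84. The median log2 ratio of 4.23 moved to 5.16 with a pseudocount of 0.1 and to 5.24 with 0.01, since a smaller pseudocount compresses low values less. It was 3.95 with both libraries rescaled to equal totals, and under the other settings for all 10 genes it lay between 4.10 and 4.23. Of 70 values of single genes 54 moved by less than their counting error on this log2 scale and 16 by more, with none changing sign. Tap1 ranged from 5.02 to 7.25 and Nlrc5 from 1.95 to 6.80, the lowest for Nlrc5 being with the curated transcript or the highest transcript only. The share of Psmb10 in its pair in mNRPCs was 24.2% with curated transcripts only. The related genes at least 2-fold higher numbered 38, between 30 and 40 under the other settings, and 20 at a threshold of 2, fewer by construction. The share of all genes higher was 18.4% after rescaling to a common sum, and the higher genes were then 30.2% of those past the threshold, against 44.9% as deposited. Depth limits the retina values of Tap1, Psmb9 and Nlrc5, which rest on under 7 estimated fragments. No paired analysis was possible because there was 1 library per condition.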
